A study of Arabidopsis thaliana with 6 samples.

Results

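The paired TIR NLR genes of Arabidopsis thaliana that lie head to head were followed in whole shoots of 2-week-old plants of the wild type Col-0 and of the mutant los2-5. They were taken from the table of raw read counts by 9 fixed locus identifiers, out of 37051 genes. The set holds the pairs RPS4 (AT5G45250) with RRS1 (AT5G45260), RPS4B (AT5G45060) with RRS1B (AT5G45050) and CSA1 (AT5G17880) with CHS3 (AT5G17890), and the trio of SOC3 (AT1G17600) with CHS1 (AT1G17610) and TN2 (AT1G17615). The assay was 3' RNA-seq, which reads transcripts near their 3' ends, in 3 libraries of each genotype, each from a pool of 3 plants, with replicates from different pots. All plants grew on soil at 22 °C under constant light. The seeds had a cold treatment of 2 days at 4 °C, and no pathogen or other treatment of the plants is named in the labels. The gene LOS2 codes for enolase, which makes phosphoenolpyruvate in glycolysis, and los2-5 is labelled as a mutant; where its lesion lies is not stated in what was used here. The question in the series title is whether enolase holds down the expression of NLR immune receptor genes, and here it was asked of genes that work as pairs, and of whether the partners moved together.

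NLR proteins are intracellular receptors that sense pathogen effectors or damage to guarded host proteins, and the TIR class carries an enzymatic domain whose products are read by EDS1 with PAD4 or SAG101 and passed to helper NLR proteins. In a paired NLR, an executor that signals works with a partner that senses, and the genes of a pair often stand back to back with facing start sites. RPS4 signals with RRS1, whose WRKY domain serves as bait for bacterial effectors, and RPS4B and RRS1B are a related pair. CSA1 signals with CHS3, which carries LIM and DA1-like domains, and CSA1 also guards the co-receptor proteins BAK1 and BIR3. SOC3 is a full-length TIR NLR that acts with the truncated TIR proteins CHS1 and TN2 to watch the ubiquitin ligase SAUL1.

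Levels are given as CPM, counts scaled to a common library size by TMM, with mean ± SD and n = 3. A gene was called where the edgeR quasi-likelihood test gave an adjusted p of at most 0.05 over all 13952 genes that passed a filter on low counts. Fold changes are los2-5 over Col-0 on the log2 scale with SE. Library totals ran from 3563033 to 4598645 counts, so the paired genes rested on 0 to 90 counts per library. For LOS2 the level was 110, 124 and 106 CPM in Col-0 and 120, 115 and 123 CPM in los2-5, and a 3' tag does not check the genotype. Shoot markers for photosynthesis were abundant in both genotypes, with a summed level of 29605 to 30962 CPM in Col-0 and 17111 to 19072 CPM in los2-5, and 4 of the 5 genes were called lower. The summed root markers ranged from 54.6 to 67.6 CPM in Col-0 and 48.0 to 69.2 CPM in los2-5, nearly all of it from PYK10, with IRT1 and EXPA7 at 0. Flower markers summed to 1.13 to 3.54 CPM in Col-0 and 0.430 to 1.73 CPM in los2-5. In bulk tissue, fewer cells of a type and less RNA per cell cannot be told apart, and the part of the marker changes in the results was not tested.

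The 4 loci differ in how close the facing genes are. Positions and sequences are RefSeq's for the TAIR10.1 build, matched by locus tag for all 9 genes, while the submitters' processing notes name TAIR10 and the count table holds no coordinates. RPS4 lies at chr5:18321764-18326175 on the minus strand and RRS1 at chr5:18326203-18332920 on the plus strand, with 27 bases between their annotated starts. RRS1B (chr5:18176894-18181973, minus) and RPS4B (chr5:18182038-18187081, plus) are separated by 64 bases. These short gaps are shown because they are all the sequence between the outermost annotated bounds of the genes of each pair. Other RRS1B models start at 18181805 or 18181252, farther from RPS4B. Both RPS4B models start at their coding start (18182038), so no untranslated part is annotated before it. CSA1 (chr5:5908834-5913317, minus) and CHS3 (chr5:5916862-5923494, plus) are 3544 bases apart, so the 250 bases before each start are shown, each read towards its own gene. Capitals mark TTGAC or its reverse complement GTCAA, the core of the W-box to which WRKY factors bind.
RPS4/RRS1 gap, chr5:18326176-18326202, plus strand: tgagatttgagtggttgaatgtccaat
RPS4B/RRS1B gap, chr5:18181974-18182037, plus strand: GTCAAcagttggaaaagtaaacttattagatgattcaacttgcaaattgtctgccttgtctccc
CSA1 upstream, chr5:5913318-5913567, minus strand: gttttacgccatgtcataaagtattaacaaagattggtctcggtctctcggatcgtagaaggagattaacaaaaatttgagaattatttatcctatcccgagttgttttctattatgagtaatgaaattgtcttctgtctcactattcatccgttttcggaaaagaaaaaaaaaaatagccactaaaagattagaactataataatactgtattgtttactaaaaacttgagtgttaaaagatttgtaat
CHS3 upstream, chr5:5916612-5916861, plus strand: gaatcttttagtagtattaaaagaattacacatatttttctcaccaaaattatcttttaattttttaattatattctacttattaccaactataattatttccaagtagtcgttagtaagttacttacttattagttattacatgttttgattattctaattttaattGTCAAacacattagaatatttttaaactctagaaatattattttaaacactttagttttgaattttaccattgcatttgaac

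Within 250 bases before the annotated start and on either strand, TTGAC was found once or more for RRS1 (1 match), RPS4B (2), RRS1B (1), CHS3 (1) and SOC3 (1), and not for RPS4, CSA1, CHS1 or TN2. The same windows hold TTGAC in 44.9% of 27444 protein-coding genes and in 55.8% of 156 genes described as NLR. TGACG, the core to which TGA factors bind, was found for RPS4B, SOC3 and CHS1 (1 match each), against 18.6% of all windows and 23.7% of those of NLR genes; where the letters run TTGACG, the motifs overlap. For close pairs, such a window reaches into the partner gene. The windows of RPS4B and RRS1B share the 64 bases between the genes. The 1 TTGAC match of RRS1B lies there and is also 1 of the 2 of RPS4B. RPS4 and CSA1, the members called higher in los2-5 below, are without TTGAC in this window, which says only that these letters are not there.

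The trio is arranged differently. SOC3 (chr1:6052936-6058114, minus) and CHS1 (chr1:6054922-6058357, plus) overlap by 3193 bases in their annotated transcripts, and 90.5% of the 2553 exonic bases of CHS1 are also exonic in SOC3 on the other strand. These values take both CHS1 models together, and the shorter model begins only at 6056787. The coding parts do not overlap, since that of SOC3 lies at 6053026-6056572 and that of CHS1 at 6056895-6058157. Of the last 500 exonic bases of CHS1, near which a 3' tag falls, 257 lie under an exon of SOC3, whereas 0 of the last 500 of SOC3 lie under CHS1. Whether the counting used strand is not stated in what was used here, so reads of CHS1 and SOC3 may not be fully separated. TN2 (chr1:6059389-6060851, plus) begins 1274 bases beyond the start of SOC3, with CHS1 as its upstream neighbour on the same strand.

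**Figure D1:**
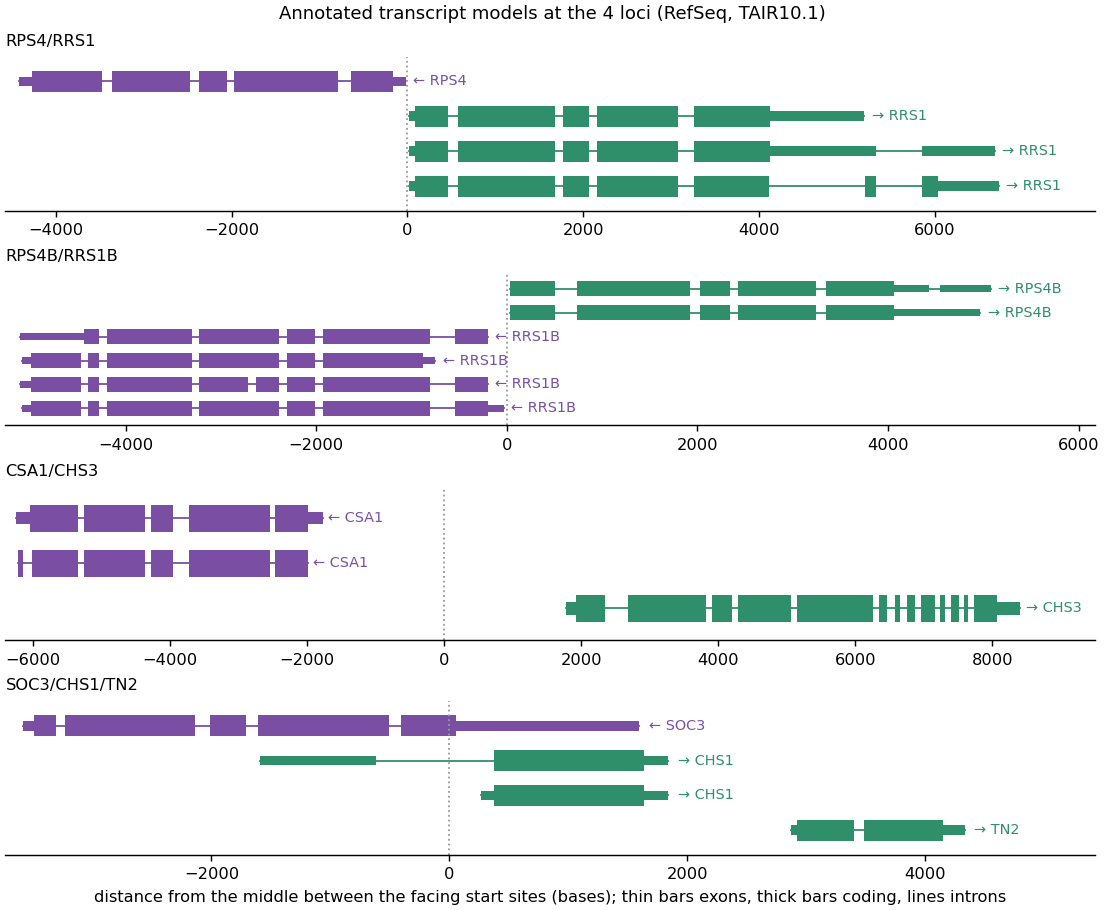
Annotated transcript models of the paired genes in TAIR10.1, plotted by distance in bases from the middle between the facing start sites (dotted line), with the scale set for each locus; purple models run to the left and green models to the right, thin bars are exons, thick bars are coding and lines are introns. Between the outermost annotated bounds, RPS4 and RRS1 lie 27 bases apart, RPS4B and RRS1B 64 and CSA1 and CHS3 3544, while SOC3 and CHS1 overlap by 3193 bases.

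Of the 9 genes, RPS4 and CSA1 were called higher in los2-5, 0 were called lower, 4 were tested and not called, and 3 (RRS1, SOC3 and TN2) had too few counts to pass the filter. Against these 2 of 6 tested genes, 9.92% of all tested genes were called higher and 10.6% lower. The count of 0 lower calls was the same with DESeq2 and limma-voom, and edgeR gave 0 lower at an unadjusted p under 0.05. Tested members had a median log2 fold change of 0.75, compared with 0.019 over all tested genes. In a fit of all 22085 genes with at least 1 count, where 7.52% were called higher, 3 of the 9 were, SOC3 being the addition. The los2-5 libraries lay wholly above those of Col-0 for 3 of the 6 tested members, against 18.7% of the genes tested. Over all 9 members they did so for 5, and no such share was computed with genes under the filter included. CHS1 passed the filter through its los2-5 counts. RPS4B, 1 of the 3 tested members above, had 8 counts in Col-0 replicate 1, against a minimum count of 10 scaled by library size. It therefore needed its los2-5 counts to pass as well, and its lack of overlap is no independent support.

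RPS4, the executor of its pair, was read 26, 33 and 30 times in the Col-0 libraries and 67, 90 and 54 times in those of los2-5. Its level was 7.67, 8.11 and 6.78 CPM in Col-0 and 14.5, 19.3 and 11.7 CPM in los2-5. Each los2-5 library exceeded each Col-0 library, and replicate 2 was the highest. The mean of RPS4 rose from 7.52 ± 0.676 to 15.2 ± 3.86 CPM, which is 1.01 ± 0.23 on the log2 scale (edgeR adjusted p = 0.0026). Its partner RRS1, the sensor with the WRKY domain, had 4, 6 and 5 counts in Col-0 and 7, 15 and 8 in los2-5, or 1.18, 1.47 and 1.13 CPM against 1.51, 3.22 and 1.74 CPM. Here too the libraries did not overlap, although the lowest los2-5 library was close to the highest of Col-0. Pooled over libraries, the RRS1 level in los2-5 was 1.71 times that in Col-0, with an exact 95% interval of 0.891 to 3.42 that covers counting error alone. The fit of every gene with a count gave RRS1 a log2 fold change of 0.76 ± 0.50 and an edgeR adjusted p of 0.36, and without los2-5 replicate 2 the value was 0.35.

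RPS4B, the executor of the related pair, had 8, 10 and 17 counts in Col-0 and 19, 23 and 19 in los2-5. In CPM it stood at 2.36, 2.46 and 3.84 in Col-0 and at 4.10, 4.94 and 4.12 in los2-5. The genotypes did not overlap, but Col-0 replicate 3 came close to the lowest los2-5 library. From 2.89 ± 0.830 to 4.39 ± 0.478 CPM, its log2 fold change of 0.58 ± 0.32 did not pass the edgeR test (adjusted p = 0.22). RRS1B, its WRKY-domain partner, had 7, 9 and 13 counts in Col-0 and 8, 12 and 12 in los2-5, with levels of 2.07, 2.21 and 2.94 CPM and of 1.73, 2.58 and 2.61 CPM. The genotypes overlapped, at means of 2.41 ± 0.468 and 2.30 ± 0.499 CPM. The RRS1B log2 fold change was -0.08 ± 0.38 (edgeR adjusted p = 0.91), and its sign turned with scaling by library size alone (0.04) and without Col-0 replicate 3 (0.09) or los2-5 replicate 1 (0.09). Its pooled ratio of 0.943 had an exact interval of 0.552 to 1.62, so a change within these bounds was not detectable at this depth.

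CSA1, the executor that guards BAK1 and BIR3, had 11, 15 and 21 counts in Col-0 and 40, 51 and 37 in los2-5. Its level was 3.25, 3.69 and 4.75 CPM in Col-0 and 8.63, 11.0 and 8.03 CPM in los2-5, with no overlap between the genotypes. The mean of CSA1 rose from 3.89 ± 0.772 to 9.21 ± 1.54 CPM, which is 1.22 ± 0.27 on the log2 scale (edgeR adjusted p = 0.0022). CHS3, its partner with LIM and DA1-like domains, had 25, 18 and 19 counts in Col-0 and 30, 57 and 33 in los2-5. At 7.38, 4.42 and 4.30 CPM in Col-0 and 6.48, 12.2 and 7.16 CPM in los2-5, the genotypes overlapped, since Col-0 replicate 1 exceeded los2-5 replicates 1 and 3. The CHS3 log2 fold change of 0.71 ± 0.29, from 5.37 ± 1.74 to 8.63 ± 3.15 CPM, did not pass the edgeR test (adjusted p = 0.089). CHS3 crossed the threshold in 6 of 22 alternatives. These were library size alone (0.84, adjusted p = 0.048) and leaving out los2-5 replicate 1 (0.88, adjusted p = 0.047), and over every gene with a count the same settings (adjusted p = 0.017 and 0.019) and leaving out Col-0 replicate 1 (0.97, adjusted p = 0.021) or los2-5 replicate 3 (0.82, adjusted p = 0.038), while without los2-5 replicate 2 its value was 0.37 (adjusted p = 0.45), all by edgeR.

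The trio was low in both genotypes. SOC3, the full-length receptor, had 1, 2 and 2 counts in Col-0 and 5, 7 and 12 in los2-5, which is 0.295, 0.491 and 0.452 CPM against 1.08, 1.504 and 2.61 CPM. The libraries did not overlap, and los2-5 replicate 3 was the highest. Pooled over libraries, the SOC3 level in los2-5 was 4.10 times that in Col-0, with an exact interval of 1.53 to 13.8 for counting error. In the fit of every gene with a count, SOC3 had a log2 fold change of 1.96 ± 0.69 (edgeR adjusted p = 0.032), a fold change that stayed at 1.55 to 2.21 with a replicate left out, and the call was lost without Col-0 replicate 1 (adjusted p = 0.10), 2 (0.066) or 3 (0.096) and without los2-5 replicate 3 (0.25).

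CHS1, a TIR protein without the repeats of a full receptor, had 11, 5 and 3 counts in Col-0 and 14, 13 and 12 in los2-5. Its level spread from 3.25 through 1.23 to 0.678 CPM in the Col-0 libraries and lay at 3.02, 2.79 and 2.61 CPM in los2-5. Only Col-0 replicate 1 reached the los2-5 values, and it exceeded all 3 of them. The log2 fold change of CHS1 was 0.79 ± 0.45 (edgeR adjusted p = 0.23), 1.53 without Col-0 replicate 1 (adjusted p = 0.057) and 0.36 without Col-0 replicate 3 (adjusted p = 0.69). TN2, the other truncated TIR protein, had 0 counts in each Col-0 library and 1, 0 and 1 in los2-5. Both totals are under the floor of 3 counts, so no fold is given for TN2, and a difference was not detectable at this depth.

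**Figure D2:**
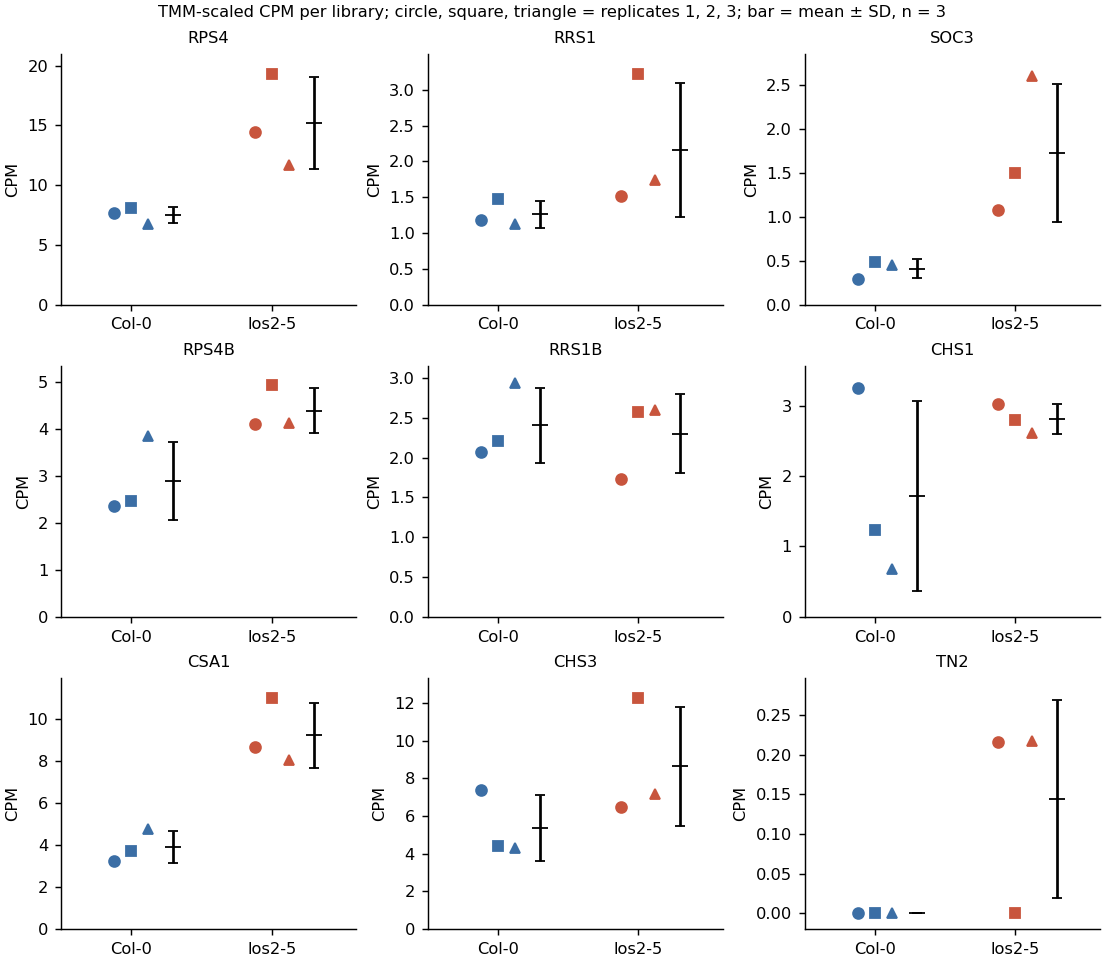
TMM-scaled level in CPM (vertical axis from 0, scaled per gene) of the 9 genes in each library, by genotype; circles, squares and triangles are replicates 1, 2 and 3, and the bar is the mean ± SD. The los2-5 points lie above all Col-0 points for RPS4, RRS1, RPS4B, CSA1 and SOC3, and overlap them for RRS1B, CHS3, CHS1 and TN2.

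Among the los2-5 libraries, replicate 2 held the highest level of RPS4, RRS1, RPS4B, CSA1 and CHS3, 5 of the 9 genes. Of all tested genes, 32.9% were highest in it, a share that leaves out genes under the filter, such as RRS1, SOC3 and TN2. These 5 genes include both partners at the RPS4/RRS1 and CSA1/CHS3 loci. Without that library RPS4 (0.80) and CSA1 (1.08) remained called by edgeR, with adjusted p of 0.022 and 0.015.

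Whether partners moved together was asked from the log2 ratio of the first to the second partner within each library, which cancels library size. The change in that ratio was tested by limma over 1885 adjacent gene pairs of the genome that face each other and passed the filter, of which 16.9% differed between the genotypes at an adjusted p of at most 0.05. Both partners passed the filter in RPS4B/RRS1B and CSA1/CHS3, and neither ratio was called. At RPS4B/RRS1B the log2 ratio was 0.16, 0.13 and 0.34 in Col-0 and 1.06, 0.83 and 0.58 in los2-5. Each los2-5 library was tilted further towards RPS4B than any Col-0 library, and the exact two-sided permutation p of 0.1 is the smallest that 3 against 3 can give. The ratio differed by 0.61 ± 0.41 (95% interval -0.224 to 1.45, limma adjusted p = 0.31). At CSA1/CHS3 the log2 ratio was -1.08, -0.24 and 0.13 in Col-0 and 0.39, -0.15 and 0.16 in los2-5, so that the genotypes overlapped. The difference was 0.53 ± 0.33 (95% interval -0.152 to 1.203, limma adjusted p = 0.28; exact permutation p = 0.2), and 0.18 without Col-0 replicate 1.

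The pairs with a thinly read partner were compared among genes with at least 15 counts in total, an alternative chosen after seeing the data. The log2 ratio of RPS4 to RRS1 was 2.31, 2.14 and 2.18 in Col-0 and 2.92, 2.42 and 2.47 in los2-5. With the prior count of 2 the 3 los2-5 values were higher, with a difference of 0.39 ± 0.43 (95% interval -0.487 to 1.27, limma adjusted p = 0.61; exact permutation p = 0.1). In raw counts, without a prior count, the libraries overlapped: RPS4 took 86.7%, 84.6% and 85.7% of the reads of its pair in Col-0 and 90.5%, 85.7% and 87.1% in los2-5. The pooled shares were 85.6% (exact 95% interval 77.3% to 91.7%) and 87.6% (82.7% to 91.4%). SOC3 over CHS1 stood at -2.29, -0.82 and -0.32 in Col-0 and at -1.17, -0.73 and 0.00 in los2-5, overlapping, with a difference of 0.51 ± 0.54 (95% interval -0.585 to 1.61, limma adjusted p = 0.59; exact permutation p = 0.6) that turned to -0.06 without Col-0 replicate 1. SOC3/TN2 gave no ratio because TN2 was at 0 in 4 of the 6 libraries.

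Thus all 4 point estimates leaned towards the first-named partner, the executor or, in the trio, the full-length receptor, and 0 of the 4 passed the limma test; 0 had an unadjusted p under 0.05. The intervals reach from below 0 to differences of at least 1.203 on the log2 scale, so neither equal nor unequal change of partners was shown. As shares of raw counts, RPS4B took 54.7% (41.7% to 67.2%) of its pair in Col-0 and 65.6% (55.0% to 75.1%) in los2-5, CSA1 took 43.1% (33.7% to 53.0%) and 51.6% (45.2% to 58.0%), and SOC3 took 20.8% (7.13% to 42.2%) and 38.1% (26.1% to 51.2%) of the reads of SOC3 and CHS1. These exact intervals overlap between genotypes at every locus, and they cover counting error only.

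**Figure D3:**
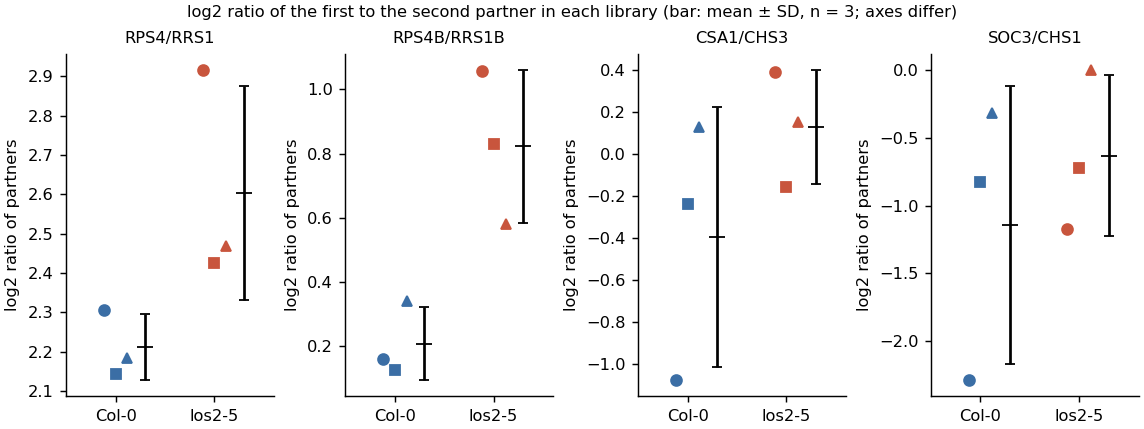
The log2 ratio of the first to the second named partner (vertical axis, prior count of 2, scaled per pair) in each library of Col-0 and los2-5, with the mean ± SD as a bar and replicates 1, 2 and 3 as circle, square and triangle. The los2-5 points lie above those of Col-0 for RPS4B/RRS1B and overlap for CSA1/CHS3 and SOC3/CHS1; for RPS4/RRS1 they lie above with the prior count, while the raw shares overlap.

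Across the genome, the fold changes of head-to-head partners were close to uncorrelated in these libraries. Among the 1885 pairs, both partners were called higher in 19 (1.01%), both lower in 31 and opposite in 33, and exactly 1 partner was called in 570 (30.2%). Signs were the same in 967 pairs (51.3%), and the fold changes of partners correlated at r = 0.10 across pairs, which share the same 6 libraries. For the 614 pairs at most 250 bases apart or overlapping, the signs were the same in 304 (49.5%) and r was 0.04. RPS4B/RRS1B had log2 fold changes of 0.58 and -0.08 and CSA1/CHS3 of 1.22 and 0.71, so CSA1/CHS3 had exactly 1 called partner and RPS4B/RRS1B had 0.

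**Figure D4:**
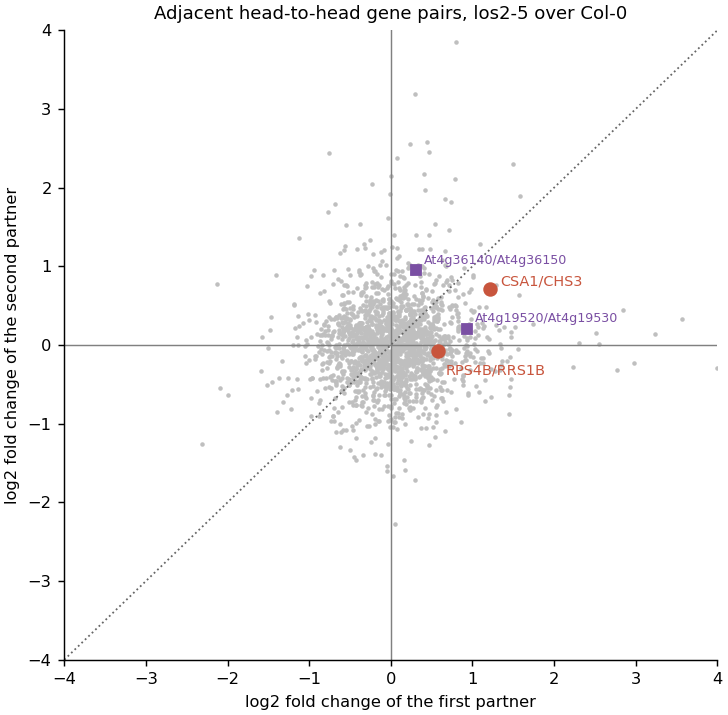
Log2 fold change (los2-5 over Col-0) of the first partner on the horizontal axis and of the second on the vertical axis for adjacent head-to-head gene pairs with both genes tested (grey, 1885 pairs, of which 2 lie outside the axes); red circles are the pairs described here and purple squares other NLR pairs. CSA1/CHS3 lies in the upper right and RPS4B/RRS1B just below the horizontal line, within a cloud with r = 0.10.

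Other NLR genes in the same arrangement were found by position among genes described as NLR in the reference, 20 genes in 10 pairs with the 9 genes left out. Pairs with a partner described otherwise are missed, as CSA1/CHS3 would be, since CHS3 is described as DA1-related protein 4. Counts were 0 in all libraries for 7 of them and 4 passed the filter, of which edgeR called 2 higher and 0 lower, against 9.92% and 10.6% of all tested genes; DESeq2 and limma-voom also called 0 lower, and 0 were lower at an unadjusted p under 0.05. AT4G19520 rose from 7.12 ± 1.23 to 13.6 ± 3.08 CPM (0.93 ± 0.23, edgeR adjusted p = 0.0063), and its partner AT4G19530 stood at 8.12 ± 1.31 and 9.42 ± 3.10 CPM (0.21 ± 0.25, adjusted p = 0.60; -0.08 without los2-5 replicate 2). AT4G36150 rose from 5.52 ± 1.33 to 10.9 ± 3.81 CPM (0.95 ± 0.27, adjusted p = 0.016), and its partner AT4G36140 stood at 2.77 ± 1.04 and 3.53 ± 1.43 CPM (0.31 ± 0.38, adjusted p = 0.61). In both pairs, as at CSA1/CHS3, 1 gene was called and its partner was not. The partner ratio itself was not called for AT4G19520/AT4G19530 (difference 0.71 ± 0.30, limma adjusted p = 0.10) or for AT4G36140/AT4G36150 (-0.61 ± 0.39, adjusted p = 0.29). The edgeR call for AT4G36150 was lost without Col-0 replicate 1 (0.79, adjusted p = 0.082) or 2 (0.95, adjusted p = 0.050003) and without los2-5 replicate 2 (0.64, adjusted p = 0.13).

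Proteins that work with these receptors were read from a list of 26 genes, chosen with earlier results of these data known. Its counts beside the shares over all genes are therefore a description. By edgeR 9 of the 23 tested were called higher, 0 lower and 14 were not called, against 9.92% higher and 10.6% lower over all tested genes, and the median log2 fold change was 0.34 against 0.019; DESeq2 called 8 higher and 0 lower, limma-voom 9 and 0, and 0 were lower at an unadjusted p under 0.05. The hub on which TIR signals converge was among the called genes. PAD4 rose from 35.2 ± 7.58 to 137 ± 30.8 CPM (1.97 ± 0.18, edgeR adjusted p = 5.1e-07) and its partner EDS1 from 11.3 ± 0.820 to 33.6 ± 7.83 CPM (1.57 ± 0.20, adjusted p = 6.3e-06). EDS1B, the neighbouring copy of EDS1, had 3, 2 and 2 counts in Col-0 and 16, 19 and 24 in los2-5, so it passed the filter through its los2-5 libraries alone. Its call is 1 of the 9 above and is no independent support. Its pooled level in los2-5 was 7.20 times that in Col-0 (exact 95% interval 3.29 to 18.7), and reads of these similar genes may not be fully separated. SAG101, the alternative partner of EDS1, rose by 1.05 ± 0.29 (adjusted p = 0.012), a call lost without Col-0 replicate 2 (0.74, adjusted p = 0.085) or los2-5 replicate 2 (0.92, adjusted p = 0.057).

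Of the 6 helper NLR genes listed, which relay the signal to cell death and resistance, 5 were tested. By edgeR 3 of them were called higher, against 9.92% of all tested genes. ADR1-L2 (0.33, adjusted p = 0.31) and NRG1.1 (0.53, adjusted p = 0.068) were not called, and NRG1C was under the filter. ADR1 rose by 1.78 ± 0.23 (edgeR adjusted p = 7.8e-06) and ADR1-L1 by 0.82 ± 0.15 (adjusted p = 0.00036). NRG1.2 rose by 1.07 ± 0.29 (edgeR adjusted p = 0.012), a call lost in 4 of 22 alternatives. SGT1A, a co-chaperone that helps NLR proteins fold, rose by 0.89 ± 0.18 (adjusted p = 0.0014). BIR1, a receptor kinase that restrains cell death together with BAK1, rose from 82.7 ± 14.9 to 228 ± 49.0 CPM (1.46 ± 0.16, adjusted p = 5.0e-06). The host proteins watched by these receptors were not called. BAK1 stood at 33.6 ± 5.46 and 36.7 ± 4.42 CPM (0.13 ± 0.16, adjusted p = 0.60), and BIR3, guarded by CSA1 with it, at 47.7 ± 6.10 and 56.2 ± 7.20 CPM (0.24 ± 0.15, adjusted p = 0.28). SAUL1, watched by SOC3, stood at 5.40 ± 1.06 and 5.69 ± 0.224 CPM (0.08 ± 0.27, adjusted p = 0.87; -0.09 without Col-0 replicate 2). LSD1, a zinc-finger repressor of cell death, stood at 14.0 ± 2.35 and 11.1 ± 0.504 CPM (-0.33 ± 0.20, adjusted p = 0.25). A p that misses the threshold does not show that these genes were the same in both genotypes.

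**Figure D5:**
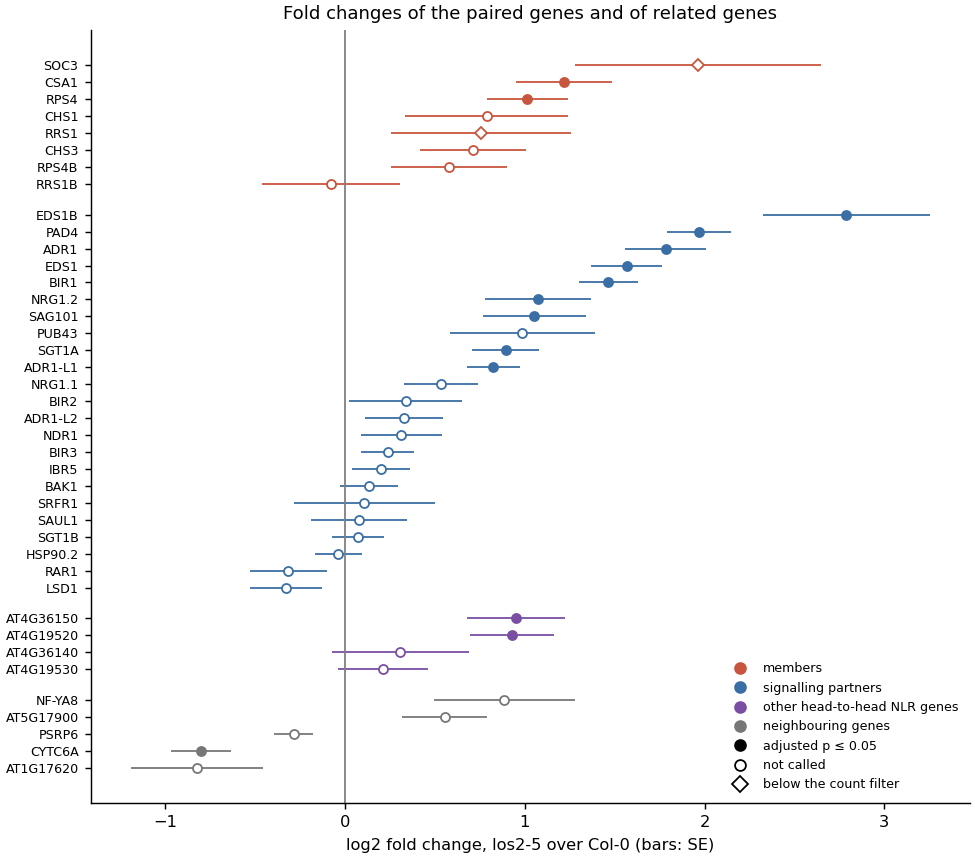
Log2 fold change (horizontal axis, los2-5 over Col-0, bars are SE) of the paired genes and of related genes that passed the count filter, with filled circles at an adjusted p of at most 0.05; diamonds are paired genes under the filter, taken from the fit of every gene with a count, and TN2 is left out. CSA1 (1.22) and RPS4 (1.01) are filled, SOC3 (1.96) has the longest bar, and RRS1B (-0.08) lies at 0.

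The genes next to the loci, 1 on each side, were read for comparison. Of these 8 genes 5 passed the filter, and edgeR called 0 higher and 1 lower, against 9.92% and 10.6% of all tested genes. At an unadjusted p under 0.05, 2 rather than 0 were higher and 3 lower, and no share over all genes was computed for that threshold. With DESeq2 the calls were again 0 higher and 1 lower, and with limma-voom 2 were lower and 0 higher. CYTC6A (AT5G45040), a cytochrome c gene beside RRS1B, fell from 27.3 ± 1.93 to 15.6 ± 1.17 CPM (-0.80 ± 0.17, adjusted p = 0.0016). Next to CSA1, the plastid ribosomal protein gene PSRP6 had a log2 fold change of -0.29 ± 0.11 (adjusted p = 0.065), and AT5G17900 next to CHS3 had 0.55 ± 0.24 (adjusted p = 0.099). The neighbours of the trio, NF-YA8 beside SOC3, which passed the filter through los2-5, and AT1G17620 beyond TN2, had 0.89 ± 0.39 (adjusted p = 0.11) and -0.82 ± 0.37 (adjusted p = 0.12). Each of these 4 genes passed the threshold in 2 or 3 alternatives: PSRP6 with limma-voom (adjusted p = 0.041), AT5G17900 with library size alone (0.044), and NF-YA8 (1.40, adjusted p = 0.045) and AT1G17620 (-1.12, adjusted p = 0.038) without Col-0 replicate 2 among them. AT5G45240, itself an NLR gene beside RPS4, had 0 or 1 count per library, and AT5G45275 beside RRS1 and PP2-A8 beside RPS4B did not pass the filter either.

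Genes most like the paired set in pattern were found by the root mean square distance over the 6 libraries between centred log2 levels and the mean of the 6 tested members, among 13893 genes at 2 CPM or more on average. That mean stood at -0.19, -0.43 and -0.37 in Col-0 and at 0.21, 0.58 and 0.21 in los2-5, highest in los2-5 replicate 2. The nearest were a phosphatidylinositol 4-kinase gene (AT1G49340, distance 0.032), AT3G27570 (0.056), described as sucrase/ferredoxin-like, the glycolytic gene GAPC1 (0.059), DWA2 (0.065), and the calreticulin gene CRT1a (0.069). The members themselves lay farther from their own mean, from 0.20 for RPS4, 0.23 for CHS3 and 0.24 for RPS4B to 0.31 for CSA1, 0.43 for RRS1B and 0.46 for CHS1. The likeness is therefore to an average from which the single members differ. The 2 farthest members, CHS1 and RRS1B, had 3 to 14 and 7 to 13 counts per library. How much of these distances is counting error was not tested, and the likeness is a description over 6 libraries.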

How the data were processed

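A table of raw counts for 37051 genes in 6 libraries was deposited and used as it stands; per the submitters' processing notes STAR, edgeR and TAIR10 were used, with no versions. What was used here does not state the counting tool, the strand setting or how reads of related genes were assigned. Every column matched 1 sample.

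Genes were kept by filterByExpr (minimum count 10, total 15; 13952 genes), scaled by TMM and tested with edgeR 4.0.16 in R 4.3.3 (glmQLFit with robust = TRUE, glmQLFTest, genotype alone), with Benjamini-Hochberg adjustment over these genes. The SE of a log2 fold change was its size over the square root of F. Partner ratios (log2 CPM, prior count 2) were tested with limma 3.58.1 (eBayes with trend, robust). Pooled ratios have exact conditional binomial intervals, and shares Clopper-Pearson intervals; both cover counting error only. DESeq2 1.42.0, limma-voom, other filters and scalings, and each replicate left out were alternatives. Motifs and positions came from RefSeq TAIR10.1. The procedures were tested on simulated data.

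Genes and lists were chosen with earlier results of these data known. Named genes were the 9 members, their neighbours, up to 8 called signalling genes by smallest p with LSD1, SAUL1, BIR3 and BAK1, the other head-to-head NLR genes tested, and the 5 most alike in pattern. The listed helper NLR genes were named as well. Replicates came from pooled plants of different pots; library totals of 3563033 to 4598645 counts limit precision for genes of a few counts.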

Additional observations from a re-analysis of the deposited data

How the results depend on the processing

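RPS4 and CSA1 were called higher under each of the alternatives in which they could be tested (23 for RPS4, log2 fold change 0.80 to 1.17, adjusted p 1.6e-05 to 0.026; 22 for CSA1, 1.07 to 1.39, adjusted p 5.7e-05 to 0.015), and 0 paired genes were called lower under any. The number called higher was 2 to 3 with each replicate left out and 1 with a minimum count of 50, where CSA1 could not be tested. That minimum left 0 other head-to-head NLR genes to call, and 1 to 2 were called with a replicate left out. All genes called higher numbered 2179 with library size alone, which moved the fold changes by a median of 0.12; with a replicate left out they numbered 831 to 1537, and those called lower 927 to 1606, the fewest without Col-0 replicate 3. RRS1B turned to 0.042 with library size alone (0.041 over every gene with a count), to 0.0900 without Col-0 replicate 3 (0.0949) and to 0.087 without los2-5 replicate 1 (0.085), its range with a replicate left out being -0.18 to 0.0900. SAUL1 turned to -0.0851 without Col-0 replicate 2 (-0.073 over every gene with a count; -0.0851 to 0.18 with a replicate left out), AT4G19530 to -0.083 without los2-5 replicate 2 (-0.085; -0.083 to 0.39), and the SOC3/CHS1 ratio to -0.058 without Col-0 replicate 1. The cause was not tested. The shared replicate numbers did not pair the samples (correlations of deviations 0.051, -0.00068 and -0.048), and with a replicate block the count of paired genes called higher was 2 and RPS4 and CSA1 had log2 fold changes of 0.997 and 1.22. The limit of these data for RRS1, SOC3, CHS1 and TN2 is their few counts.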
